A study of Mus musculus with 13 samples.

Results

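The 10 genes described here serve antigen presentation by major histocompatibility complex (MHC) class II molecules: H2-Aa, H2-Ab1, H2-Eb1, Cd74, Ciita, H2-DMa, H2-DMb1, Ctss, Cd80 and Cd86. They were taken by symbol from a table of 22048 genes, and all 10 were present and passed the filter on low counts. RNA was measured by sequencing in 13 whole mouse livers, in 3 groups. The 6 control livers (replicates 1, 2 and 6 male, 3, 4 and 5 female) were labelled as not depleted of stellate cells. The 4 depleted livers (replicate 3 male, the others female) were labelled as depleted of hepatic stellate cells, pericytes of the sinusoids that store vitamin A, and the 3 hepatectomised livers (replicates 1 and 2 male, 3 female) were not depleted and were taken 72 h after part of the liver was removed. Strain, age and the means of depletion are not given in the sources used here, nor is the treatment of controls beyond the absence of depletion. No label says that the livers of a group came from separate animals or gives a sequencing date, so p-values measure only the spread between these samples, which may be technical.

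MHC class II molecules are pairs of an alpha and a beta chain on the surface of dendritic cells, B cells and macrophages, where they show peptides to CD4+ T cells. The chains are held by the invariant chain until cathepsin S cuts it, after which the DM molecule exchanges the remaining fragment for a peptide. The co-activator CIITA controls transcription of these genes from a conserved promoter module of X and Y boxes, interferon-gamma is a main inducer of Ciita, and CD80 and CD86 give the second signal that a T cell needs. In the liver the pathway is known mainly from dendritic cells, Kupffer cells (the resident macrophages), B cells and, more weakly, sinusoidal endothelium.

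Stretches of promoter are shown to mark letters like those of the X and Y boxes where they occur. The table of RefSeq promoters used here (GRCm38.p6) gave a sequence for 6 of the 10 genes. In the 250 bases before the start site, the letters GNAAC, core of the X box, followed on the same strand by the Y box TGATTGG at 20 to 40 bases from start to start, were found in H2-Aa, H2-Eb1 and H2-DMb1. They were 31, 30 and 31 bases apart. The 150 bases up to the RefSeq start site are given below, 5′ to 3′ on the gene's strand, with these boxes in capitals for H2-Aa (chr17:34287824-34287973, minus strand), H2-Eb1 (chr17:34305717-34305866, plus strand) and H2-DMb1 (chr17:34153041-34153190, plus strand). The stretch of Ctss (chr3:95526636-95526785, plus strand), which lacks the pair, has the capitals on GAAA, any 2 bases and GAAA again, an interferon-response type of motif.
H2-Aa: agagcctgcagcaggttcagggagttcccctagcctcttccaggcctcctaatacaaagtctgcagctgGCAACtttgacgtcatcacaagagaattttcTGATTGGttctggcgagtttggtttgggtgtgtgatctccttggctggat
H2-Eb1: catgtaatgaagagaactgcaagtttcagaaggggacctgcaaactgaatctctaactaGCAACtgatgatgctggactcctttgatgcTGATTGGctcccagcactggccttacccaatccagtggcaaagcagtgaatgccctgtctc
H2-DMb1: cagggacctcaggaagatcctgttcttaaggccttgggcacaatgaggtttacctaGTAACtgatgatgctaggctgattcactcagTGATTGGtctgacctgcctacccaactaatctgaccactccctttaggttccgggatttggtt
Ctss: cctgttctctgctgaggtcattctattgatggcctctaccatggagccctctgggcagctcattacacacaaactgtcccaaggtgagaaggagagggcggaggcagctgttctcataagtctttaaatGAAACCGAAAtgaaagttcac
The pair was also present in 3 of the other class II genes, H2-Oa, H2-Ob and H2-Eb2, while H2-DMb2 had TGATTGG alone. Searched on both strands, it was found in 159 of 32851 promoters of the same length (0.484%), TGATTGG in 7.23% and the GAAA repeat in 2.98%. H2-DMa (2 start sites), Ctss and Cd80 held no such pair in this window. The letters were chosen after these promoters had been looked at, so the matches are a description, and none was tested for binding.

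Most of the genes lie together. On GRCm38 (GENCODE M21), chromosome 17 holds the alpha chain H2-Aa (34282744 to 34287823), the beta chains H2-Ab1 (34257689 to 34269419) and H2-Eb1 (34305867 to 34316674), and the 2 DM chains H2-DMa (34119541 to 34139101) and H2-DMb1 (34153072 to 34160230). Chromosome 16 holds Ciita (10480059 to 10528418), Cd86 (36603869 to 36666081) and Cd80 (38455561 to 38496335). Cd74, the invariant chain, is on chromosome 18 (60803848 to 60812652), and Ctss, cathepsin S, on chromosome 3 (95526786 to 95556403). Counts are over exons. H2-DMb1 has a near-identical neighbour, H2-DMb2, so the split of reads between these 2 genes is uncertain. Ciita shares 111 of its 5254 exon bases with Dexi on the opposite strand, and the strand setting of the counting is not given in the sources used here.

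Total counts were 35360991 to 42784362 in control, 37848305 to 51008737 in depleted and 39633635 to 46228433 in hepatectomised livers. Stellate cell markers were lower in depleted livers for 6 of 6 listed genes, with summed levels of 8.59, 8.65, 14.0 and 40.5 CPM (counts scaled to library size by the trimmed means method, TMM) in replicates 1 to 4 against 170 to 481 CPM in controls. Hepatocyte markers were high in all libraries, from 61726 to 161893 CPM summed over 4 genes. Libraries of 2 livers stood apart: in control replicate 6 and hepatectomised replicate 2, 4 pan-leukocyte markers summed to 10.7 and 16.2 CPM, against 38.9 to 56.5 CPM in the other controls and 39.9 and 52.1 CPM in the other hepatectomised livers. Their sums were also the lowest of their groups for endothelial markers (64.4 and 63.4 CPM, others 210 to 306 and 151 and 194), Kupffer cell markers (52.2 and 58.3 CPM, others 312 to 465 and 243 and 677) and stellate cell markers (170 and 162 CPM, others 316 to 481 and 267 and 326). Results are given with both, and without them where that changes a call or a count.

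All 10 genes were higher in depleted livers than in controls, by 5.44-fold (Cd86) to 40.1-fold (H2-Eb1), and in no case did the ranges of the groups meet. The classical chains, the invariant chain and Ciita differed most, at 29.2-fold or more, the DM chains by 23- to 25.2-fold and Ctss, Cd80 and Cd86 by less than 9-fold. By edgeR's quasi-likelihood test over 13831 genes, 10 of 10 passed an adjusted p of 0.05, where 18.9% of all genes tested were called higher and 33.9% in either direction. Ranges lay wholly above those of controls for 16.5% of all genes. The median log2 fold change was 4.76 for the 10 genes and -0.03 for all genes. In bulk tissue, more cells that carry a transcript and more transcript per cell cannot be told apart.

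The alpha chain H2-Aa had 12.3 CPM in the lowest control, 21.2 at the control median and 37.1 in the highest. In depleted replicates 1 to 4 it stood at 499, 400, 1061 and 1173 CPM, and in hepatectomised replicates 1 to 3 at 5.32, 4.66 and 15.9 CPM. Every depleted liver was at least 10.8 times above the highest control, and replicates 3 and 4 were the highest. The log2 fold change between depleted and control livers was 5.13 ± 0.44 (SE, adjusted p = 9.19e-06).

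Its partner, the beta chain H2-Ab1, ran from 10.3 through a median of 17.2 to 31.8 CPM in controls. Depleted livers had 431, 333, 809 and 919 CPM and hepatectomised livers 5.2, 4.07 and 15.1 CPM. Depleted livers were thus all above, and 2 of 3 hepatectomised livers below, every control. The difference of depleted from control livers was 5.01 ± 0.43 on the log2 scale (adjusted p = 8.78e-06). Per length, the alpha and beta chain of this pair were close to equal in every liver, with a ratio of H2-Aa to H2-Ab1 of 0.931 to 1.08 in controls, 1.08 ± 0.0613 (SD, n = 4) in depleted and 0.893 to 1.0 in hepatectomised livers.

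H2-Eb1, the beta chain of the E molecule, had 3.66 CPM in the lowest control (replicate 6), 16.5 at the median and 26.9 in the highest. Depleted livers reached 449, 361, 873 and 947 CPM, against 4.76, 2.05 and 12.7 CPM after hepatectomy. Hepatectomised livers overlapped controls only through the low control replicate 6 and the higher hepatectomised replicate 3. Its log2 fold change in depleted livers was 5.33 ± 0.55 (adjusted p = 2.8e-05).

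Per length, Cd74 was the most abundant of the 10 genes in control and depleted livers. Controls had 25.4 to 121 CPM with a median of 66.2, depleted livers 1504, 1096, 3126 and 3037 CPM, and hepatectomised livers 22.5, 13.5 and 44.6 CPM. Per kilobase of exon, its mean went from 50.5 to 1554 CPM, which moved it from rank 905 to rank 30 among the 22048 genes of the table. The log2 fold change was 4.95 ± 0.48 (adjusted p = 1.82e-05).

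Ciita, the co-activator, was low in controls, at 0.54 to 2.08 CPM with a median of 1.18. In depleted replicates 1 to 4 it had 46.4, 28.0, 36.0 and 33.2 CPM, and after hepatectomy 0.735, 0.14 and 0.299 CPM, from 25, 5 and 12 counts. Unlike the chains, it was highest in depleted replicate 1. Depleted livers differed from controls by 4.87 ± 0.39 on the log2 scale (adjusted p = 4.89e-06).

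H2-DMa and H2-DMb1 form the DM peptide exchanger. H2-DMa had 1.08 to 4.82 CPM in controls (median 3.4), 58.7, 39.4, 105 and 117 CPM in depleted livers and 2.26, 1.09 and 2.67 CPM after hepatectomy. H2-DMb1 had 0.84 to 2.81 CPM in controls (median 1.91), 33.1, 21.6, 52.4 and 66.9 CPM in depleted livers and 0.558, 0.309 and 1.05 CPM after hepatectomy. Both were highest in depleted replicates 3 and 4, as the classical chains were. Depleted livers differed from controls by 4.66 ± 0.42 (adjusted p = 1.18e-05) for H2-DMa and 4.52 ± 0.40 (adjusted p = 1.01e-05) for H2-DMb1 on the log2 scale.

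Ctss, the protease that trims the invariant chain, was already plentiful in controls, at 8.4 to 63.0 CPM with a median of 47.4. Depleted livers had 291, 269, 468 and 503 CPM and hepatectomised livers 54.1, 12.1 and 42.8 CPM. Its log2 fold change in depleted livers was 3.11 ± 0.50 (adjusted p = 0.000542). Among the 10 genes only Cd74 had a higher mean per kilobase in controls, where Ctss stood at 32.1 CPM per kilobase, while in depleted livers all 3 classical chains also exceeded its 282 CPM per kilobase.

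Of the costimulatory ligands, Cd86 had the smallest estimate of the 10 genes, and that of Cd80 was close to that of Ctss. Cd80 was near the limit of detection in controls, at 0.15 to 0.708 CPM (median 0.288), and had 2.98, 1.95, 2.9 and 4.14 CPM in depleted and 0.265, 0.168 and 0.349 CPM in hepatectomised livers. Cd86 had 0.99 to 5.05 CPM in controls (median 4.04), 17.1, 14.8, 22.6 and 26.8 CPM in depleted and 5.58, 0.814 and 3.29 CPM in hepatectomised livers. Depleted livers were above all controls for both ligands, by 3.07 ± 0.40 (adjusted p = 0.000102) for Cd80 and 2.44 ± 0.46 (adjusted p = 0.00145) for Cd86 on the log2 scale.

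**Figure D1:**
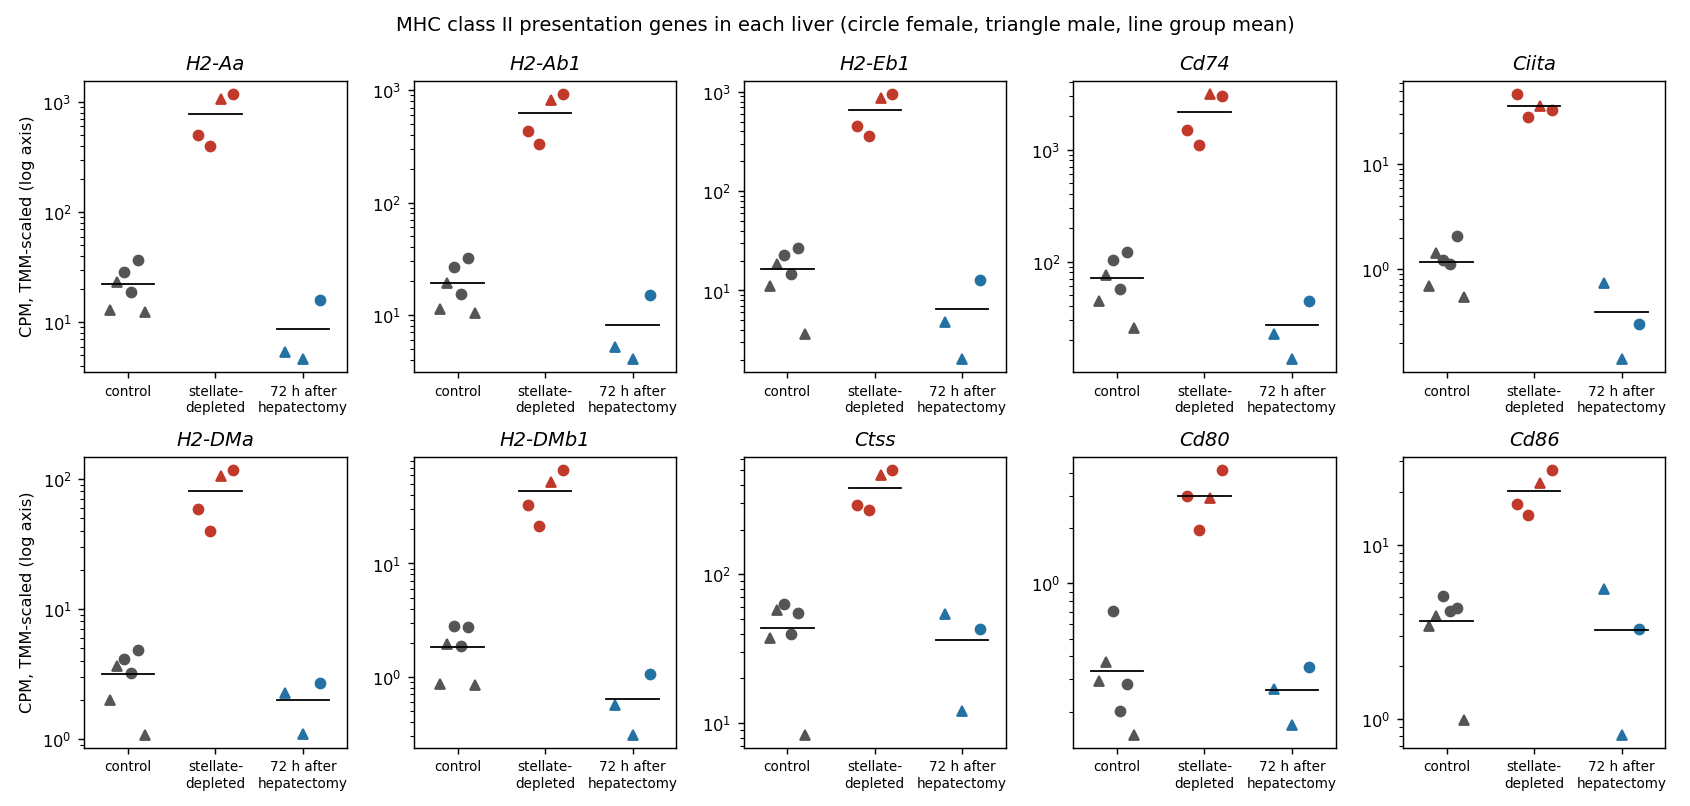
TMM-scaled CPM (log axis) of each of the 10 genes in each liver, by group, with females as circles, males as triangles and the group mean as a line. In every panel the 4 depleted livers lie above all 6 controls, and the hepatectomised livers' range overlaps the controls', with 2 of 3 livers below every control for H2-Aa, H2-Ab1, Cd74, Ciita and H2-DMb1. Replicate 2, low in leukocyte transcripts, is always among these 2.

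The size of the difference leaned on 1 library. Without depleted replicate 3, the only depleted male, the log2 fold changes were 4.48 for H2-Aa, 4.38 for H2-Ab1, 4.62 for H2-Eb1 and 4.27 for Cd74, and all 4 still passed (adjusted p = 0.000468 or lower). In females alone, Cd74 differed by 4.31 (adjusted p = 0.00112), and 10 of 10 genes remained called. Between 3 male and 3 female control livers, edgeR called 0 of the 10 genes and DESeq2 also 0, where 0.738% of 13005 genes were called by edgeR. All 10 estimates were lower in males, by -1.02 to -0.53 on the log2 scale, with 3 at an unadjusted p under 0.05 by edgeR. Control replicate 6, the library low in leukocyte transcripts, is 1 of these males. Without it 0 genes were under that p, as without replicate 1, 3 or 5, against 4 without replicate 4 and 7 without replicate 2. The share of all genes under that unadjusted p is not given here.

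Transcripts of several leukocyte types were also higher in depleted livers, though not all in the same order among the 4 livers. In depleted livers 4 of 4 pan-leukocyte markers were called higher (summed 238 to 429 CPM against 10.7 to 56.5 in controls), as were 5 of 5 B cell markers (22.9 to 36.3 against 3.35 to 6.82 CPM), 4 of 4 T cell markers measured (22.7 to 59.1 against 0.815 to 1.87 CPM), 5 of 6 monocyte markers (435 to 834 against 16.6 to 121 CPM) and 5 of 5 neutrophil markers (140 to 328 against 0.27 to 1.66 CPM). Of 8 dendritic cell markers, 5 were higher and 1 lower (28.6 to 90.4 against 6.0 to 12.1 CPM). Xcr1 and Clec9a, markers of the cross-presenting type, rose by 4.14 ± 0.48 and 4.13 ± 0.40, and Siglech, a marker of plasmacytoid cells, fell by 2.63 ± 0.72 on the log2 scale. Kupffer cell markers were divided: 3 of 6 were called higher (570 to 1288 against 52.2 to 465 CPM), with Marco at 4.73 ± 0.79, while Clec4f stood at -3.00 ± 1.26 (adjusted p = 0.0872). Clec4f had 0.236, 2.17, 3.44 and 69.5 CPM in depleted replicates 1 to 4 and 20.3 to 165 CPM in controls, so only replicate 4 lay inside the control range. The 5 sinusoidal endothelial markers gave 0 calls with edgeR, 1 at an unadjusted p under 0.05, and summed to 124 to 278 CPM in depleted and 64.4 to 306 CPM in control livers. The neutrophil marker Ly6g had 0 counts in all 6 controls, and Flt3, Retnlg and Ngp had 0 counts in at least 1 control. The part of these cell types in the class II levels was not tested.

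Levels were next set against Ptprc, the gene of the leukocyte antigen CD45, as length-scaled ratios. Ptprc was chosen as denominator after values had been seen, and it rose itself by 3.21 ± 0.40 on the log2 scale in depleted livers. For 7 of 10 genes, H2-Aa, H2-Ab1, H2-Eb1, Cd74, Ciita, H2-DMa and H2-DMb1, the ratio in every depleted liver exceeded that in every control, where 0.925% of all genes tested did so and 87.4% lay below. Cd74 per Ptprc was 195, 190, 313 and 356 in depleted replicates 1 to 4, against 61.1 to 112 in controls, and Ciita per Ptprc was 1.62, 1.3, 0.967 and 1.05 against 0.258 to 0.64. Ctss per Ptprc overlapped, at 39.3 to 61.2 in depleted and 38.5 to 60.2 in control livers, Cd80 overlapped too, and Cd86 per Ptprc was lower, at 0.853 to 1.21 against 1.32 to 1.98. With Laptm5, Cd53 or Coro1a as denominator instead, 8, 7 and 7 genes lay above all controls, Ctss among them with Laptm5 and Cd53 and H2-DMb1 overlapping with Cd53, where 1.38%, 1.27% and 0.658% of all genes did. Of these 3 denominators, Cd86 lay below with Coro1a alone, and 84.6%, 84.1% and 89.2% of all genes lay below. H2-Aa, H2-Ab1, H2-Eb1, Cd74, Ciita and H2-DMa lay above with all 4 denominators.

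**Figure D2:**
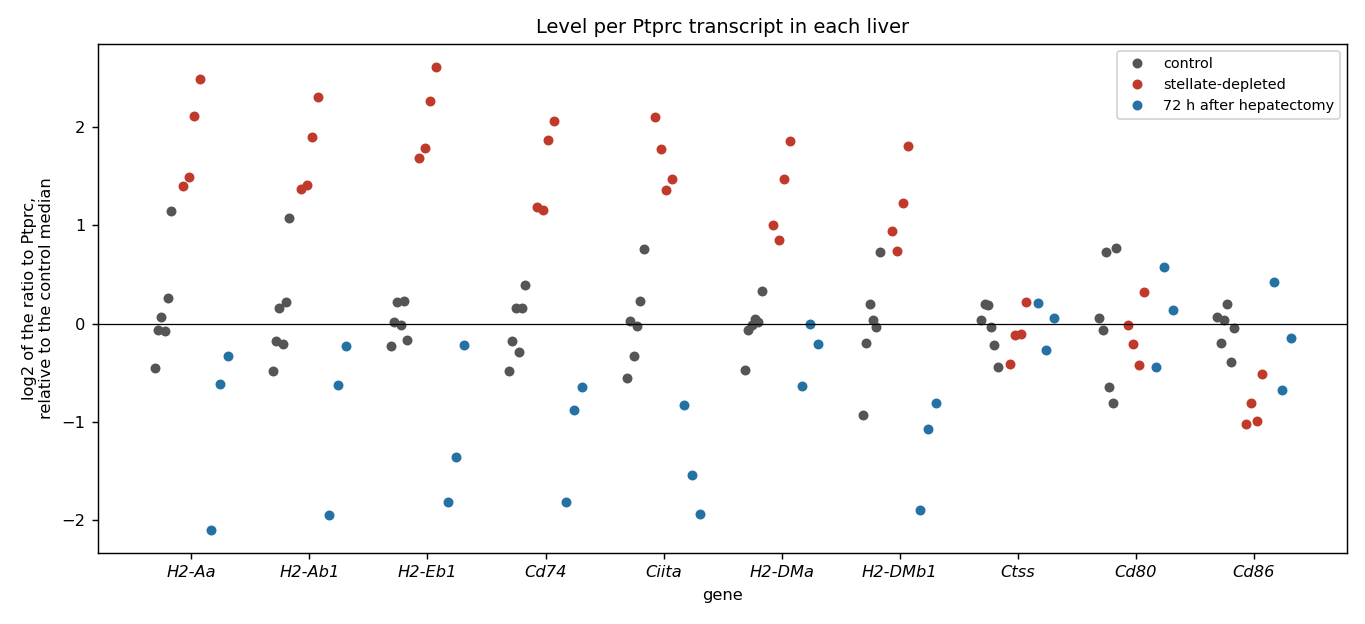
Log2 of each gene's length-scaled ratio to Ptprc in each liver (points), relative to the median of the 6 controls (line at 0), by group. For the classical chains, Cd74, Ciita and the DM chains the depleted livers lie above all controls, while Ctss and Cd80 overlap and Cd86 lies below.

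Among the 4 depleted livers the genes fell into differing orders. H2-Aa, H2-Ab1, H2-Eb1, Cd74, H2-DMa and H2-DMb1 were lowest in replicate 2, next in replicate 1 and high in replicates 3 and 4, whereas Ciita, like the ligand gene Cd274, was highest in replicate 1. The length-scaled ratio of H2-Aa to Ciita was 30.2, 40, 82.6 and 99.0 in depleted replicates 1 to 4, and 45.8 to 64.5 in the 6 controls. Replicate 4 kept the most stellate transcripts (40.5 CPM) and had the highest H2-Aa, H2-Ab1, H2-Eb1 and DM levels of all livers. Dendritic, T, Kupffer and B cell marker sums were also highest there among depleted livers (90.4, 59.1, 1288 and 36.3 CPM). Pan-leukocyte and monocyte sums were highest in replicate 3 (429 and 834 CPM), and neutrophil and endothelial sums were lowest in replicate 4 (140 and 124 CPM). The part of any of these cell types in the order was not tested. Across all 13 libraries, the deviations of log2 CPM from the group mean correlated at r = 0.89 to 0.99 for the 6 pairs among H2-Aa, H2-Ab1, H2-Eb1 and Cd74, and at 0.41 to 0.96 over the other 39 pairs, among which Ciita with these 4 genes gave 0.41 to 0.61. These values are descriptive, since the genes share libraries and their leukocyte content.

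**Figure D3:**
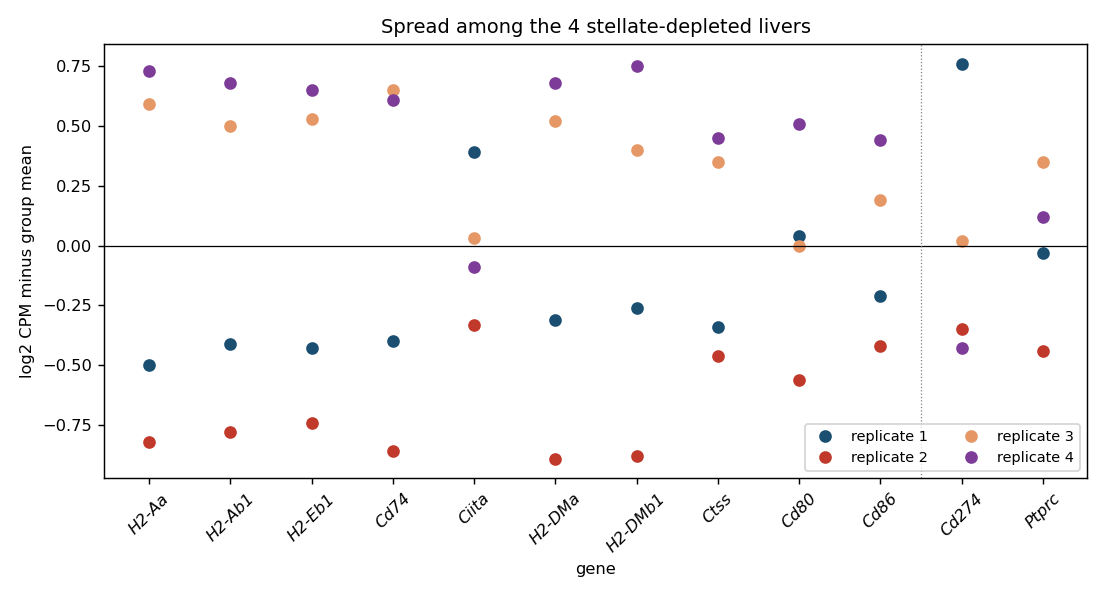
Log2 CPM of each gene minus its group mean in the 4 depleted livers (points, coloured by replicate), with Cd274 and Ptprc to the right of the dotted line. The classical chains, Cd74 and the DM genes are highest in replicates 3 and 4, while Ciita and Cd274 are highest in replicate 1.

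The genes whose deviations followed the mean of H2-Aa, H2-Ab1, H2-Eb1 and Cd74 most closely over the 13 libraries were Nkg7 (r = 0.974), H2-DMb2 (0.969), Rbpj (0.945), H2-T23 (0.944), Apobec3 (0.942), Sytl2 (0.942), Rhoh (0.941) and Skap1 (0.94). Over 13831 genes the median r was -0.03, and 35 genes exceeded 0.9. This count was taken over all genes, with H2-Aa, H2-Ab1, H2-Eb1 and Cd74 themselves included. The differences of the named non-members from controls varied in size. Nkg7, a granule gene of cytotoxic lymphocytes, rose by 4.99 ± 0.55 and Apobec3, a restriction factor against retroviruses, by 3.98 ± 0.23 on the log2 scale in depleted livers. Rbpj, the transcription factor of Notch signalling, and Sytl2 were not called against controls (0.26 ± 0.16, adjusted p = 0.244, and 0.74 ± 0.36, adjusted p = 0.138) but were called against hepatectomised livers (0.65 ± 0.20, adjusted p = 0.0326, and 1.52 ± 0.47, adjusted p = 0.0325).

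After partial hepatectomy, no class II presentation gene passed the test against controls. All 10 estimates lay below 0, from -1.53 ± 0.50 for Ciita (adjusted p = 0.0819) to -0.10 ± 0.53 for Cd86 (adjusted p = 0.937), and the ranges of all 10 overlapped those of controls (7.41% of all genes lay wholly above and 6.25% wholly below). By edgeR, 0 of 10 were called lower, where 2.36% of 13831 genes were (8.42% in either direction), and 6 of 10, H2-Aa, H2-Ab1, H2-Eb1, Cd74, Ciita and H2-DMb1, had an unadjusted p under 0.05. The share of all genes under that unadjusted p is not given here, so the 6 of 10 cannot be set against it. The median log2 fold change was -1.26 for the 10 genes and -0.02 for all genes. limma-voom also called 0, and DESeq2 called 5 lower: H2-Aa (-1.34, adjusted p = 0.0234), H2-Ab1 (-1.20, adjusted p = 0.0425), Cd74 (-1.34, adjusted p = 0.0342), Ciita (-1.52, adjusted p = 0.0124) and H2-DMb1 (-1.44, adjusted p = 0.0222). Over 13831 genes, DESeq2 called 746 lower and limma-voom 330, against 326 by the main edgeR fit.

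For H2-Aa, H2-Ab1, Cd74, Ciita and H2-DMb1, 2 of the 3 hepatectomised livers lay below every control, and the third lay inside the control range. That liver was replicate 3, the female, for H2-Aa, H2-Ab1, Cd74 and H2-DMb1, and replicate 1 for Ciita. Replicate 2, the hepatectomised library low in leukocyte transcripts, was thus always among the 2 below. The share of all genes with 2 of 3 livers below every control is not given here. Without hepatectomised replicate 1, Ciita differed by -2.41 on the log2 scale (adjusted p = 0.0166 by edgeR). Estimates for H2-DMa (-0.57 ± 0.47), Ctss (-0.21 ± 0.55) and Cd80 (-0.30 ± 0.48) were near 0 relative to their errors. Leaving out 1 liver at a time took Ctss from -0.76 to 0.18 and Cd86 from -0.93 to 0.32, so neither had a stable direction. Without hepatectomised replicate 3, the differences were -1.98 for H2-Aa (adjusted p = 0.0627), -1.82 for H2-Ab1 (adjusted p = 0.0739) and -2.01 for H2-Eb1 (adjusted p = 0.132) by edgeR, still not called.

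**Figure D4:**
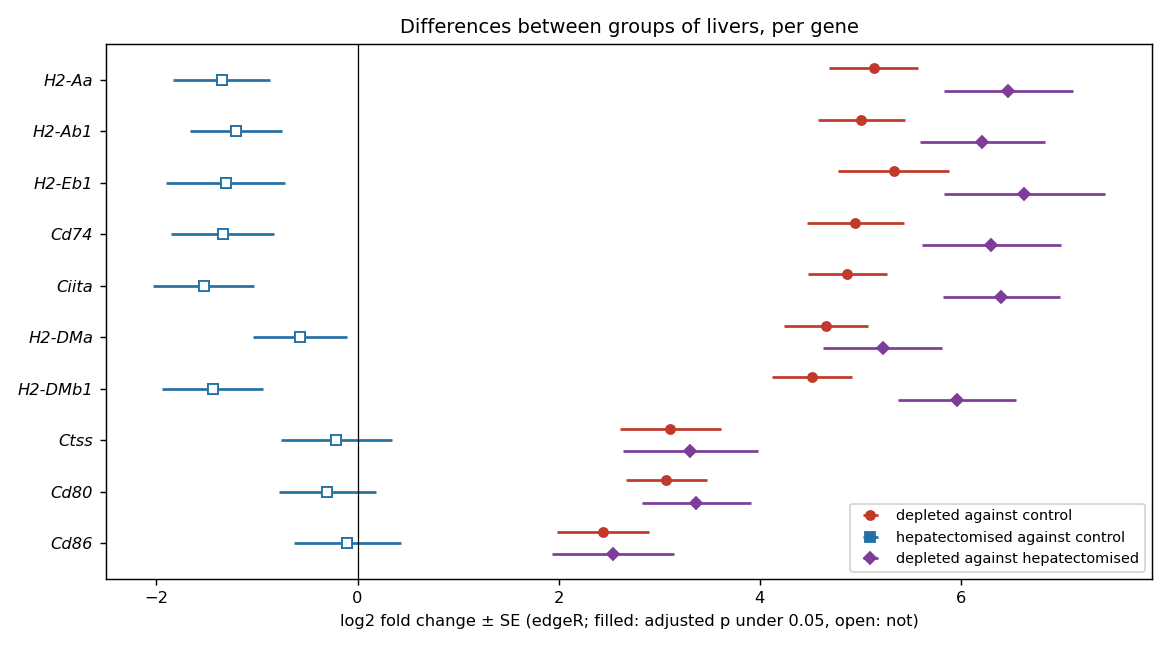
Log2 fold change ± SE of each of the 10 genes in the 3 comparisons, from edgeR, with filled points where the adjusted p was under 0.05 and open points where it was not. Both comparisons of depleted livers lie to the right of 0 for all 10 genes, and the hepatectomised livers' differences from controls are all open and lie between -1.53 and -0.10.

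Leukocyte markers after hepatectomy did not move as one. Pan-leukocyte markers summed to 16.2 to 52.1 CPM (10.7 to 56.5 in controls) and dendritic cell markers to 5.17 to 8.58 CPM (6.0 to 12.1 in controls), with 0 of 4 and 0 of 8 called by edgeR and 0 and 1 at an unadjusted p under 0.05. B cell markers fell for 2 of 5, Pax5 by 2.49 ± 0.50 (adjusted p = 0.0108) and Ms4a1 by 1.51 ± 0.41 (adjusted p = 0.0408) on the log2 scale, with sums of 0.814 to 4.49 CPM against 3.35 to 6.82 CPM. Neutrophil markers were higher for 5 of 5 and monocyte markers for 1 of 6, while 0 of 4 T cell and 0 of 6 Kupffer cell markers were called. Of 5 sinusoidal endothelial markers 0 were called, with sums of 63.4 to 194 CPM against 64.4 to 306 CPM in controls. Per Ptprc, Cd74 (24.3 to 54.7 against 61.1 to 112) and Ciita (0.0986 to 0.213 against 0.258 to 0.64) lay below all controls, where 0.737% of all genes did, and Ciita did so with all 4 denominators but Cd74 only with Ptprc and Cd53, and H2-Eb1 only with Cd53. With Laptm5, Cd53 and Coro1a, 1, 3 and 1 of the 10 genes lay below all controls, where 0.795%, 1.58% and 3.13% of all genes did. The part of B cells or other leukocytes in the class II levels was not tested.

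Set against each other, depleted livers exceeded hepatectomised livers for 10 of 10 genes (13.3% of all genes were called higher), and ranges did not meet for any (18.1% of all genes lay wholly above). Differences were 6.47 ± 0.64 for H2-Aa (adjusted p = 7.34e-05), 6.21 ± 0.62 for H2-Ab1 (adjusted p = 7.34e-05), 6.63 ± 0.80 for H2-Eb1 (adjusted p = 0.000219) and 6.30 ± 0.69 for Cd74 (adjusted p = 0.000124) on the log2 scale. Ciita differed by 6.40 ± 0.58 (adjusted p = 5.03e-05), H2-DMa by 5.22 ± 0.59 (adjusted p = 0.000148) and H2-DMb1 by 5.96 ± 0.59 (adjusted p = 7.34e-05). Ctss (3.31 ± 0.67, adjusted p = 0.00421), Cd80 (3.37 ± 0.54, adjusted p = 0.001) and Cd86 (2.54 ± 0.61, adjusted p = 0.0104) again differed least. So the order of levels was hepatectomised, control, depleted for every group mean, and between the 2 lower groups no gene passed edgeR's adjusted threshold, though DESeq2 called 5.

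These differences also leaned on single livers. Without depleted replicate 3 they were 5.81 for H2-Aa, 5.57 for H2-Ab1, 5.92 for H2-Eb1 and 5.55 for Cd74, and Cd86 was no longer called (2.25, adjusted p = 0.0694). Without hepatectomised replicate 3 they were 7.10, 6.83 and 7.33 for the 3 classical chains, and Cd86 was again not called (2.39, adjusted p = 0.0557). Leaving out hepatectomised replicate 1 gave 7.25 for Ciita and 3.33 for Cd86, both called. In females alone the hepatectomised group is 1 liver, assumed to vary as the livers of the other groups do, and the differences were 5.42, 5.19 and 5.5 for H2-Aa, H2-Ab1 and H2-Eb1, 5.37 for Cd74 and 5.25 for H2-DMb1, all called, and Cd80 was not (3.08, adjusted p = 0.0787).

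Beyond the 10 genes, 41 genes of the pathway were listed, of which 40 were in the table and 39 passed the low-count filter. In depleted livers 29 of 39 were higher and 2 lower than in controls (18.9% and 15.0% of all genes were called), with a median log2 fold change of 2.02. The other class II molecules rose together: H2-DMb2 by 4.30 ± 0.43, and the alpha and beta chain of the DM inhibitor DO, H2-Oa and H2-Ob, by 3.79 ± 0.57 and 3.19 ± 0.38. Among antigen processing enzymes 5 of 7 rose, led by the lysosomal thiol reductase Ifi30 (2.65 ± 0.30) and the asparaginyl endopeptidase Lgmn (1.46 ± 0.30), then Ctsd (0.83 ± 0.14) and the cysteine protease inhibitor Cst3 (0.81 ± 0.17).

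The transcription factors of class II genes were divided. Irf8 and Spi1, factors of the myeloid lineage, rose by 3.52 ± 0.33 and 2.56 ± 0.46. Of the general factors that bind the X and Y boxes, Nfya rose by 0.54 ± 0.15, Nfyb fell by 0.58 ± 0.11, and Rfx5, at 0.02 ± 0.17 (adjusted p = 0.934), was among 5 of 9 that were not called. Turnover genes differed in direction: the ubiquitin ligase gene March1 rose by 2.85 ± 0.55 and Cd83, which opposes it, by 2.69 ± 0.38, while March8 fell by 0.66 ± 0.11.

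In the interferon-gamma axis 7 of 8 genes rose. The cytokine gene Ifng had 0, 0, 1, 1, 3 and 0 counts in controls, 29, 15, 134 and 145 in depleted livers and 0, 0 and 1 after hepatectomy. Controls and hepatectomised livers were thus at or under 3 counts, and depleted livers above all of them (adjusted p = 0.000194). Irf1, an interferon-induced transcription factor, rose by 2.02 ± 0.13 and the feedback inhibitor Socs1 by 5.84 ± 0.85.

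All 9 costimulatory and co-receptor genes rose in depleted livers. Cd274, which encodes the inhibitory ligand PD-L1, had 151, 70.1, 90.7 and 66.2 CPM against 1.14 to 4.84 CPM in controls (4.83 ± 0.39, adjusted p = 6.05e-06). On the T cell side, Cd28, the receptor of CD80 and CD86, rose by 4.18 ± 0.61. Its inhibitory rival Ctla4 had 18, 23, 106 and 89 counts against 0 to 3 in controls, and the second PD-1 ligand Pdcd1lg2 had 44, 31, 172 and 286 against 0 to 3. Cd4, the co-receptor that binds class II, had 4.73, 5.55, 8.8 and 9.71 CPM against 1.12 to 2.34 CPM (2.38 ± 0.32, adjusted p = 0.000134).

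In hepatectomised livers 3 of these 39 genes passed the test against controls. The cathepsin gene Ctsl rose by 0.62 ± 0.17 (adjusted p = 0.043), and Rfx5 and March8 fell by 1.00 ± 0.20 (adjusted p = 0.0107) and 0.49 ± 0.12 (adjusted p = 0.0253). Over all genes 6.06% were higher, 2.36% lower and 8.42% changed in either direction, so 3 of 39 is near the background. With the replicate number as a block, 1 of the 39 passed. Without control replicate 1 or 2, or hepatectomised replicate 1 or 2, 1 passed in each fit, and without hepatectomised replicate 3, 0 passed by edgeR. Cd4 stood at 0.27 ± 0.36 (adjusted p = 0.698). Between depleted and hepatectomised livers 26 were higher and 1, Nfyb (-0.44), lower (10.1% of all genes were lower), but 15 in all without depleted replicate 3. Rfx5 was 1.03 ± 0.22 higher on the log2 scale in depleted than in hepatectomised livers (adjusted p = 0.00502).

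**Figure D5:**
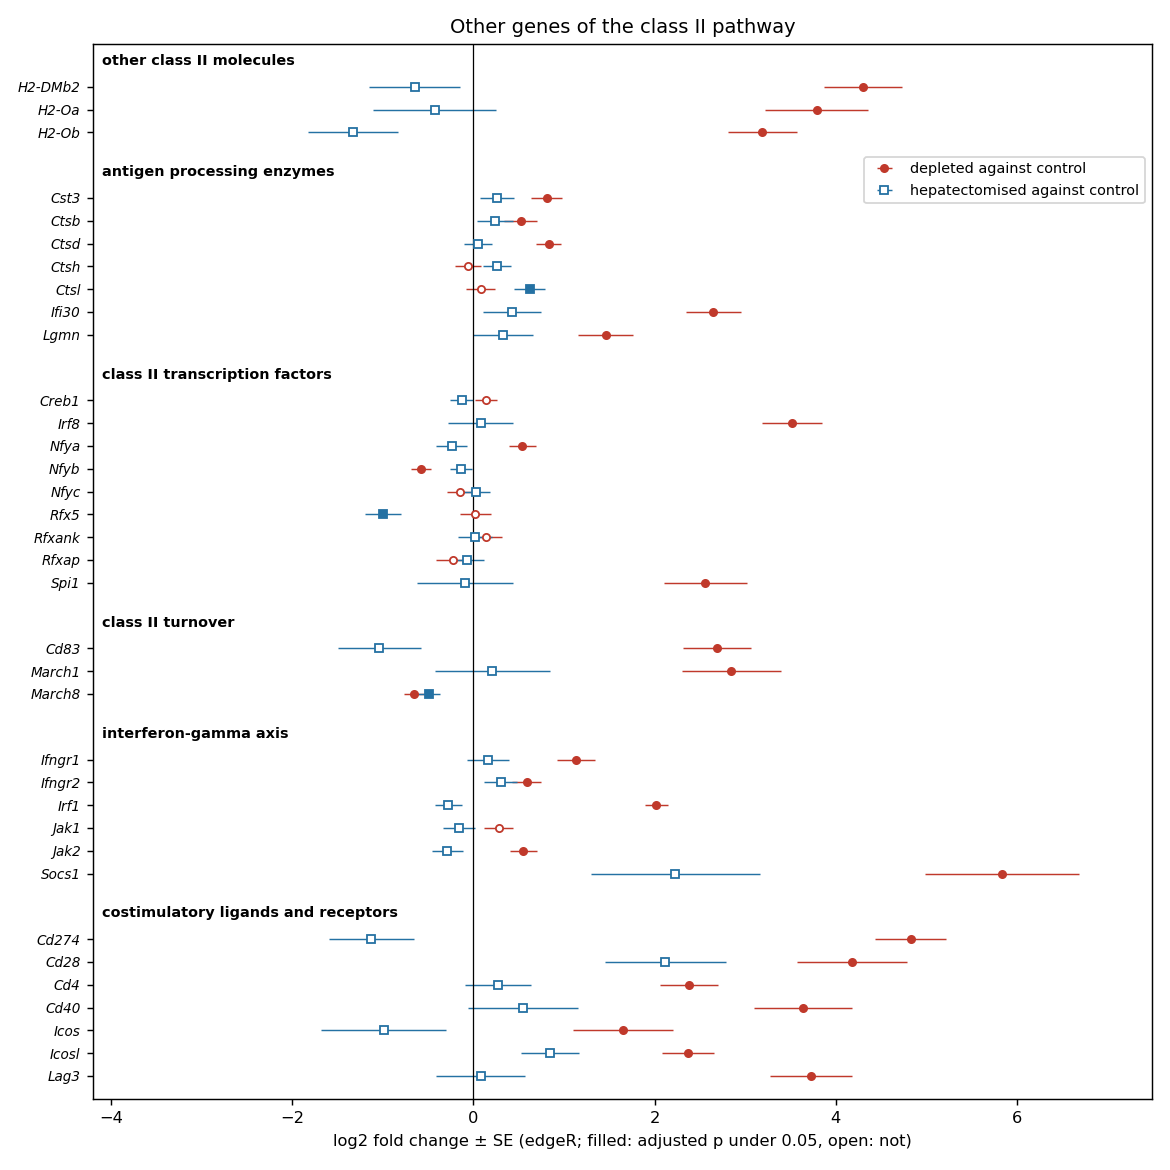
Log2 fold change ± SE of the other pathway genes against controls in depleted (red circles) and hepatectomised livers (blue squares), grouped by role, filled where edgeR's adjusted p was under 0.05, without Ifng, Ctla4 and Pdcd1lg2, whose counts in controls were 0 to 3, and 1 listed gene that is not reported. Most red points are filled and lie right of 0, while most of the class II transcription factors have open red points near 0, and 3 blue points are filled.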

How the data were processed

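RNA of 13 whole livers was sequenced from stranded mRNA libraries, per the labels' protocols. The authors deposited raw read counts per gene in 1 table. The submitters' processing notes name STAR 2.7.1a, SAMtools 1.15.1, featureCounts 1.6.4 and the build mm10. The annotation, strand setting and treatment of multi-mapped reads are not given in the sources used here. Gene IDs were matched to GENCODE M21, with 21741 of 22048 found, and 99.94% of them overlapped the same gene on GRCm38. No libraries were duplicates.

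Counts were tested with edgeR 4.0.16 (quasi-likelihood F-test, robust, two-sided) in R 4.3.3, with filterByExpr (13831 genes kept), TMM scaling, group and sex as terms, all 13 libraries in the fit and Benjamini-Hochberg adjustment over all genes at a threshold of 0.05. CPM values are TMM-scaled, log2 CPM used a prior count of 2, and edgeR's common coefficient of variation between livers, beyond counting error, was 31.4%. The test was checked on simulated counts. Alternatives were DESeq2 1.42.0, limma-voom (limma 3.58.1), library size alone, no filter, no sex term, a replicate block, only the groups compared, females only, and leaving out each library. An alternative without control replicate 6 and hepatectomised replicate 2 was chosen after seeing the data.

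The 10 genes and the lists of pathway genes and cell type markers were chosen with earlier results of these data known. Pathway genes were named if called in a comparison, at most 4 per list and comparison by absolute log2 fold change, plus Ifng and Cd4. Of the interferon-gamma list, 1 gene is counted but not reported here. Genes of like pattern were the 8 with the highest r. The marker Trac and the pathway gene H2-Ea-ps were not measured here, and H2-Eb2 did not pass the filter. Total counts of at least 35360991 put 3 counts below 0.1 CPM, and such limits cover counting error only.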

Additional observations from a re-analysis of the deposited data

How the results depend on the processing

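Depth limits the genes that rest on few counts in control or hepatectomised livers, among them Ciita, Cd80, H2-Oa, H2-Ob, Ifng, Cd28, Socs1, Ctla4 and Pdcd1lg2, and 3 hepatectomised livers, 2 of them male, limit every comparison with that group. Of the 10 genes' values under the alternatives, 190 of 190 for depleted against control livers, 157 of 160 for depleted against hepatectomised and 165 of 180 for hepatectomised against control livers kept direction and side of the threshold. Of the rest, 8 passed the threshold and 7 changed sign with none of them called: leaving out 1 library gave -0.76 to 0.18 for Ctss, -0.44 to 0 for Cd80 and -0.93 to 0.32 for Cd86, which stood at 0.06 without both low libraries. For hepatectomised against control livers, 0 of the 10 genes were called lower, against 5 with DESeq2, 1 with library size alone (Ciita, -1.76, adjusted p = 0.0383) and 1 with only the groups compared (H2-Aa, -1.31, adjusted p = 0.0393). Of all 13831 genes tested, 326 were lower in the main fit, 746 with DESeq2 and 1566 with library size alone. With only the groups compared, 260 of 13310 were lower. Leaving out 1 library at a time gave 0 to 1. Over all genes, library size alone moved the median difference (log2) to -0.24 there, 0.08 for depleted against control and 0.27 for depleted against hepatectomised livers. It also moved the share of higher genes among all called from 72% to 28.6%, from 55.7% to 66.2% and from 56.8% to 83.6%, in that order of comparisons.

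Other pathway genes called between hepatectomised and control livers numbered 3, against 5 with DESeq2, 0 in females only, 1 without both libraries low in leukocyte transcripts, and 0 to 3 leaving out 1 library. Between depleted and hepatectomised livers they numbered 27, against 12 in females only and 15 to 27 leaving out 1 library, while 9 to 10 of the 10 genes were called higher. For depleted against control livers the ranges were 26 to 31 and 10 to 10. Over all genes, hepatectomised against control livers gave 1164 calls, against 2192 with library size alone, 1939 with DESeq2, 632 with the replicate block, 90 in females only, 483 without hepatectomised replicate 2, 692 and 742 without control replicate 1 or 2, and 412 without both low libraries. Depleted against control gave 4692, against 2726 in females only and 2960 without depleted replicate 3, and depleted against hepatectomised 3236, against 1263 in females only, 2105 with only the groups compared and 1709 without depleted replicate 3. The cause was not tested.

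Replicate numbers 1 to 3 recur in all groups, and no label ties a number to a shared animal, litter or batch. Same-numbered deviations from group means correlated across genes at -0.34 to 0.07 for depleted with control, -0.35 to 0 for depleted with hepatectomised and 0.11 to 0.52 for hepatectomised with control livers, whose 3 pairs are each of 1 sex. With sex removed they were -0.1 to 0.42, 0.04 to 0.27 and -0.19 to 0.08, in that order. Their means were 0.12, 0.16 and -0.05, against -0.02, -0.05 and 0.01 for livers of differing number. Some likeness by number thus remained in both comparisons of depleted livers, over 0.1 in 1 of 4 and 2 of 3 pairs. As no label ties the numbers together, they were not taken as pairs in the main fit. With the replicate block, 10 of 10 genes were still called higher in both comparisons of depleted livers and 0 between hepatectomised and control livers, and other pathway genes called numbered 29, 27 and 1.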
